A study of Homo sapiens with 9 samples.

Results

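The mitochondrial ribosomal protein genes were taken as the symbols of the deposited table that begin with MRPL or MRPS and go on with a number and at most 1 letter. There were 78 of them among 27800 symbols, and all 78 reached 1 TPM in 3 or more of the 9 libraries, the minimum for testing, which 14144 symbols met. They were followed in PANC-1, an epithelial cell line from a human pancreatic tumour, by RNA sequencing at day 0, day 2 and day 14 of combined nutrient and oxygen deprivation, with 3 libraries per day. The labels described the medium as low in glucose, serum and amino acids, worded it identically for every sample, named no further treatment, and gave no undeprived cells at day 2 or day 14. Deprivation, time in culture and a batch by day therefore cannot be told apart, and how the day 0 cells were kept was not given in the sources used here. The line is a single established one, and the deposited columns of all 9 libraries were headed WT. The labels did not say whether libraries came from separate cultures, so the p-values rest on the spread of these libraries alone, and that spread may be purely technical.

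Mitochondria keep their own ribosome, which translates the few proteins encoded by mitochondrial DNA, all of them core subunits of the respiratory chain and of ATP synthase. Its RNA comes from the mitochondrial genome, whereas all of its proteins are encoded in the nucleus, made in the cytosol and imported. Some of these proteins have relatives in bacterial ribosomes and others are found only in mitochondria. Of the 78 genes, 51 encode proteins of the large subunit, which joins amino acids, and 26 proteins of the small subunit, which decodes the message. Of these large-subunit genes, 30 encode proteins with a bacterial relative and 21 proteins specific to mitochondria. For the small-subunit genes the numbers are 16 and 10. MRPS30 and MRPS18A are counted with the large subunit, where their proteins sit despite their names. MRPS36 carries the name but encodes a component of the oxoglutarate dehydrogenase complex, and was kept as a member outside the ribosome.

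Nuclear genes for mitochondrial proteins are known targets of the factors NRF1, GABPA (of the ETS family) and YY1. Promoter stretches are therefore shown for a selection of members that fell or rose. This selection does not show how often a motif goes with a fall. RefSeq start sites on GRCh38.p14, with 250 bases before and 50 after each start, matched 69 of the 78 members. MRPL2, MRPL10, MRPL13, MRPL15, MRPL21, MRPL23, MRPL35, MRPS28 and MRPS36 were not matched. The 3 motifs searched, on both strands, were GCATGCGC for NRF1, CCGGAAGT for ETS and AAGATGGCG for YY1, and a gene counted once if any of its starts held the letters. The stretches below are upstream of the start, 5′ to 3′ on the strand of the gene, and capitals mark the motif letters. MRPL52 (chr14:22829707-22829836, plus strand) held 1 NRF1 core and 2 YY1 cores in the stretch shown. MRPL17 (chr11:6683371-6683430, minus strand) held 3 NRF1 matches, of which the first 2 overlap, and MRPL32 (chr7:42932316-42932375, plus strand) held 1. The other members with an NRF1 core, MRPL22, MRPS18B and MRPS18C, were not called at day 2 and are not shown. MRPS34 (chr16:1773135-1773194, minus strand) and MRPL20 (chr1:1407294-1407353, minus strand) held 1 ETS core each. MRPL12 (chr17:81703307-81703366, plus strand), among the largest falls, and MRPS6 (chr21:34073518-34073577, plus strand), the largest rise, held none of the 3 in the window.
MRPL52: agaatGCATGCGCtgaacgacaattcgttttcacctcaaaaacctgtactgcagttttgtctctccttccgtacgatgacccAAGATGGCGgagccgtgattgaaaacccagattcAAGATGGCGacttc
MRPL17: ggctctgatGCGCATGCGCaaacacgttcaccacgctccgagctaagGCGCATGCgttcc
MRPL32: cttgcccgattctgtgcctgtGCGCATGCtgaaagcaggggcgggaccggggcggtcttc
MRPS34: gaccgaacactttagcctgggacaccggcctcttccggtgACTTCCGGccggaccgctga
MRPL20: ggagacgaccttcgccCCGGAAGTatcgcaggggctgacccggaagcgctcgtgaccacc
MRPL12: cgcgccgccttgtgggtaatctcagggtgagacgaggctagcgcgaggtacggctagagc
MRPS6: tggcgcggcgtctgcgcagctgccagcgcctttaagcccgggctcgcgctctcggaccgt

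TPM is a length-corrected share of a library with a fixed total, so depth is unknown and each value is relative to the other genes of that library. The microRNA symbol MIR6723 took 16.2% to 32.6% of all TPM. Day 0 replicate 2 stood apart: 11363 genes reached 1 TPM in it, against 13016 to 13868 in the other 8 libraries. Against the average of day 0 replicates 1 and 3, its members had a median log2 difference of 0.57, while the median over all tested genes was -0.58. It lay above both other day 0 libraries for 59 members and below both for 13. The median difference for members was 1.12 at transcript lengths of 500 to 700 nt and 0.54 at 1000 to 2000 nt. Over all tested genes of these lengths it was -0.54 and -0.46. Day 0 is the reference of both comparisons with deprived cells, so counts of called members and list genes against day 0 are given with and without this library, save those by promoter motif, which use all 9. The labelled epithelial origin was met by KRT8, KRT18, KRT19, KRT7 and EPCAM, all present in every library, with summed levels of 3137 to 4400 TPM at day 0, 1044 to 1250 at day 2 and 1150 to 1351 at day 14. Of 4 fibroblast markers only COL1A1 reached 1 TPM (summed levels 10.05 to 61.1, 55.7 to 72.8 and 8.49 to 13.0 TPM, with DCN at 0 throughout). None of the blood, acinar, islet or hepatocyte markers did, and CD3E, CPA1, INS and GCG were at 0 in all libraries. The part of these shifts in the results below was not tested, and in bulk RNA fewer cells of a type and less RNA per cell cannot be told apart.

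**Figure D1:**
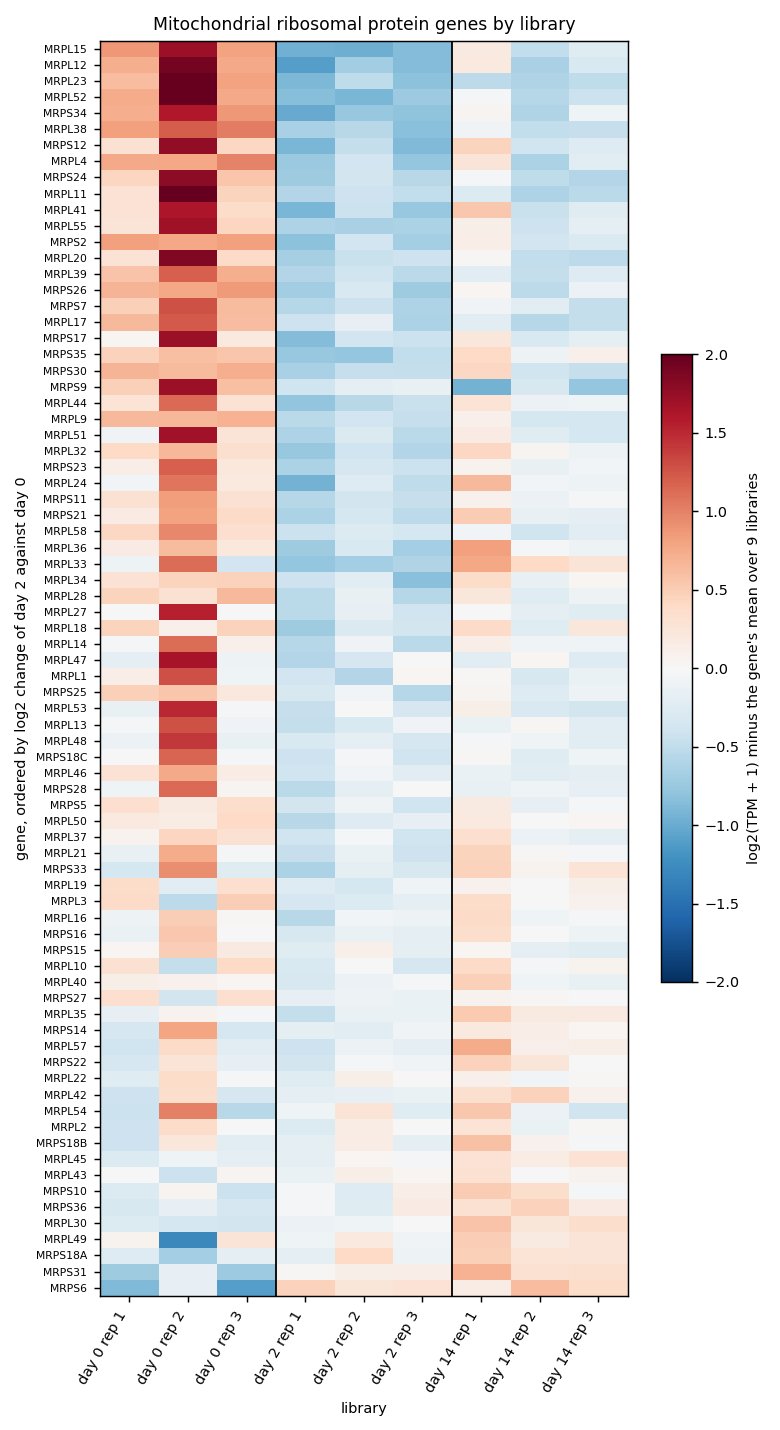
Heat map of the 78 mitochondrial ribosomal protein genes (rows, largest fall at day 2 on top) in 9 libraries (columns); colour gives log2(TPM + 1) minus the gene's own mean, clipped at 2 in both directions. Most rows are red at day 0, darkest in replicate 2, and blue at day 2, while MRPS6 and MRPS31 at the bottom run the other way.

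Summed over the members, the libraries held 5611, 11304 and 5990 TPM at day 0 (replicates 1, 2 and 3), 3387, 4125 and 3673 at day 2, and 5904, 4397 and 4455 at day 14. Every day 2 library was thus below every day 0 library, and the day 14 libraries reached from above the day 2 range into the day 0 range. The balance between subunits moved little, with a ratio of summed large-subunit to small-subunit TPM of 1.47 to 1.60 at day 0, 1.48 to 1.55 at day 2 and 1.51 to 1.56 at day 14. Levels per gene spanned a wide range, from a mean of 7.78 TPM over the 9 libraries for MRPL19 to 623 TPM for MRPS12, with a median of 51.2 TPM. A mean of at least 100 TPM was found for 13 members and one under 20 TPM for 12.

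MRPS12, which encodes a protein of the decoding centre, ranked first among the members on each day. It stood at 647, 1789 and 698 TPM at day 0, 275, 377 and 282 at day 2, and 710, 394 and 438 at day 14. All day 2 values were below all day 0 values, and the day 14 values overlapped those of day 0. MRPS24, MRPL20 and MRPL12 had the next highest means over the 9 libraries, at 213, 191 and 186 TPM, and their day 0 values overlapped one another. This order differed by day: MRPS24 ranked 2, 3 and 5 on days 0, 2 and 14, MRPL20 ranked 4, 5 and 6, and MRPL12 ranked 3, 12 and 7. Readings of MRPS24 are uncertain because the annotated read-through gene URGCP-MRPS24 shares 425 nt of exon with it. The lowest means over the 9 libraries were those of MRPL19, at 10.2, 6.45 and 9.93 TPM on day 0, and MRPL22, at 8.92, 14.1 and 10.4 TPM, and these 2 overlapped as well. MRPL19 ranked 78 on each day, and MRPL22 ranked 77, 74 and 76.

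After 2 days of deprivation 36 of the 78 members fell and 1 rose, at an adjusted p under 0.05 by limma on log2(TPM + 1), beside 11.5% of all tested genes called lower and 19.2% called higher. The median log2 change of the members was -0.76 and that of all tested genes 0.23. Without day 0 replicate 2 there were 41 falls and 2 rises, against 23.6% and 24.7% of all genes, with medians of -0.58 and 0.02. The log2 change was negative in 68 members and positive in 10 (38.8% and 61.2% of all genes). In 46 members every day 2 library was below every day 0 library, in 4 every one was above, and in 28 the days overlapped, where 17.4% and 33.4% of all tested genes were separated downwards and upwards. When day 0 replicate 2 was dropped, 63 members had a negative and 15 a positive change (48.7% and 51.3% of all genes), and 50 lay wholly below and 10 wholly above (34.6% and 37% of all genes). With day 2 replicate 1 left out 21 members fell and none rose (6.74% and 12.6% of all genes), and with day 2 replicate 3 left out 20 fell and 1 rose (6.85% and 12.3%).

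The largest fall at day 2 was that of MRPL15, a large-subunit protein with a bacterial relative. It was at 65.1, 117 and 62.1 TPM on day 0 and at 17.6, 17.3 and 18.8 TPM on day 2, a log2 change of -2.06 ± 0.28 (SE, limma adjusted p = 0.00119). The 3 day 2 values lay within a narrow band far under the lowest day 0 value, and the fall was -1.77 without day 0 replicate 2.

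MRPL12 encodes the stalk protein that helps translation factors bind, and its product has also been found with the mitochondrial RNA polymerase. Its levels were 244, 558 and 250 TPM at day 0 and 68.2, 90.0 and 80.1 TPM at day 2, a log2 change of -2.03 ± 0.35 (limma adjusted p = 0.00358). MRPL23, a protein near the exit of the peptide tunnel, went from 144, 511 and 165 TPM to 49.9, 65.8 and 53.0 TPM (log2 change -2.02 ± 0.42, limma adjusted p = 0.00828). In both genes day 0 replicate 2 was over 2 times the other day 0 libraries, and without it the changes were -1.64 for MRPL12 and -1.45 for MRPL23, with no overlap between days.

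Among proteins specific to mitochondria, MRPL52 of the large subunit stood at 36.8, 90.6 and 37.4 TPM on day 0 and at 11.5, 11 and 12.7 TPM on day 2 (log2 change -2.01 ± 0.34, limma adjusted p = 0.00346). MRPS34, needed for a stable small subunit, stood at 136, 251 and 150 TPM and then at 40.1, 48.0 and 46.5 TPM (-1.93 ± 0.27, limma adjusted p = 0.00152). MRPL38, also of the large subunit, went from 82.5, 108 and 94.3 TPM to 29.1, 31.1 and 25.3 TPM (-1.70 ± 0.19, limma adjusted p = 0.000545). Of these 3, MRPL38 had the closest day 0 replicates, and its change without day 0 replicate 2 was -1.60. Those of MRPL52 and MRPS34 were then -1.58 and -1.66. The days did not overlap for any of the 3.

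Falls of this kind were also found where day 0 replicate 2 did not stand out. MRPS2, MRPL9, MRPS26 and MRPL4, picked for this after their values had been seen, had day 0 values of 56.8 to 59.3, 51.5 to 53.2, 76.0 to 85.5 and 78.3 to 92.5 TPM. On day 2 they were at 18.3 to 25.1, 21.9 to 24.5, 28.4 to 37.9 and 26.4 to 34.9 TPM. Their log2 changes were -1.43, -1.14, -1.33 and -1.47, and -1.45, -1.14, -1.33 and -1.51 without that library. All 4 calls were kept under each of the 23 alternatives tried.

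**Figure D2:**
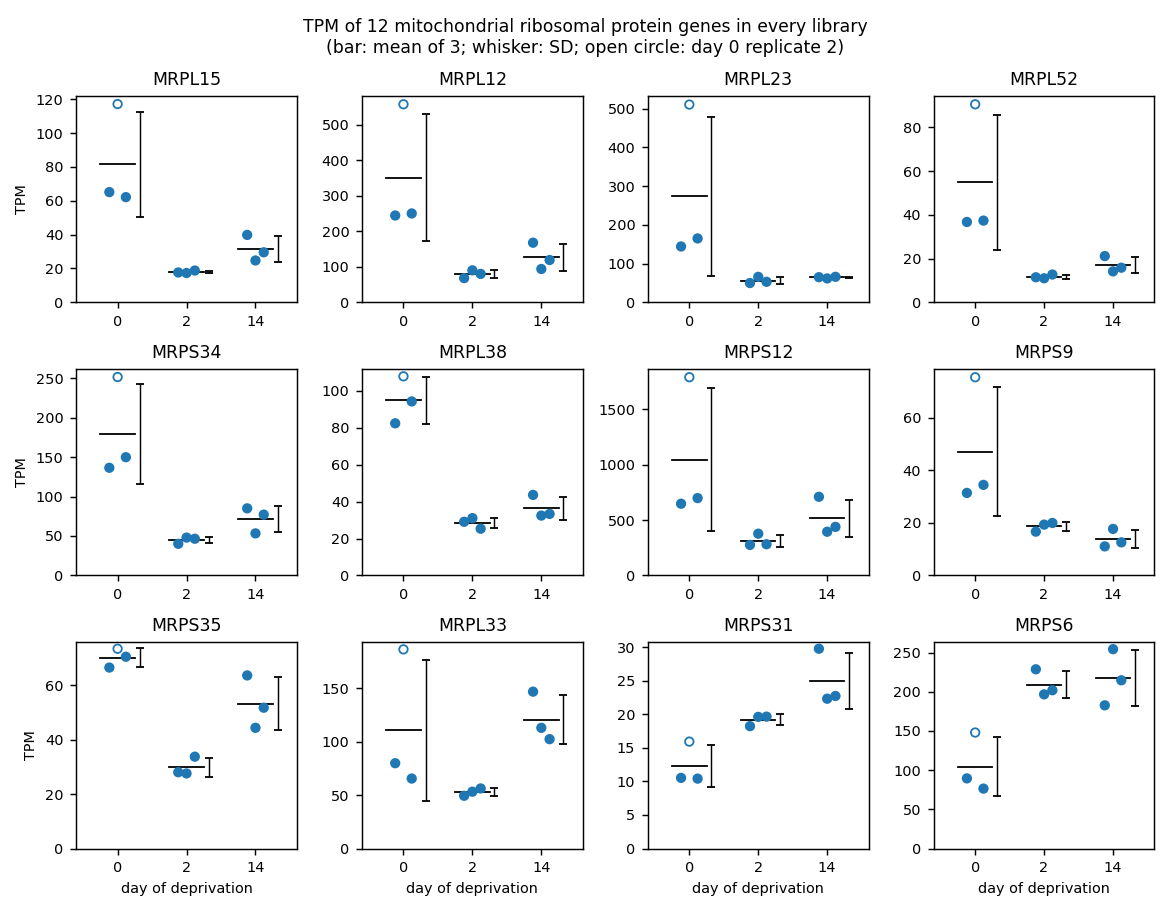
TPM (linear axis from 0) of 12 members in each library by day of deprivation, with the mean of 3 libraries as a bar and the SD as a whisker; the open circle is day 0 replicate 2. The day 2 points of the first 8 genes lie below all their day 0 points, MRPS35 and MRPL33 are higher at day 14 than at day 2, and MRPS31 and MRPS6 are lowest at day 0.

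MRPS12, MRPS24, MRPL20 and MRPL41, all with high levels, fell with a wider error, and in each day 0 replicate 2 was over 2 times the other day 0 libraries. MRPS12 changed by -1.59 ± 0.40 on the log2 scale (limma adjusted p = 0.0182), a call that was lost without day 2 replicate 1 (limma adjusted p = 0.0638) or replicate 3 (0.0623), with a range of 9.11e-05 to 0.0638 over its alternatives. MRPS24, at 243, 625 and 264 TPM on day 0 and 110, 139 and 122 TPM on day 2, changed by -1.47 ± 0.35 (limma adjusted p = 0.0144), lost without day 2 replicate 1 (0.0536, the highest of its alternatives, which went down to 4.63e-05). MRPL20, at 197, 581 and 211 TPM on day 0 and 102, 118 and 120 TPM on day 2, changed by -1.35 ± 0.39 (limma adjusted p = 0.0301), and without day 2 replicates 1, 2 and 3 its adjusted p was 0.0929, 0.0747 and 0.0737, in a range from 0.000211 to 0.0929. MRPL41, a large-subunit protein specific to mitochondria, went from 169, 426 and 179 TPM to 73.1, 103 and 81.7 TPM (-1.45 ± 0.39, limma adjusted p = 0.0239). It lost its call without day 2 replicate 1 (0.0811) or replicate 3 (0.0724), with a range over alternatives of 0.000251 to 0.0811. In all 4 genes the days were separate. Without day 0 replicate 2 the changes of MRPS12, MRPS24, MRPL20 and MRPL41 were -1.12, -1.04, -0.85 and -1.02.

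By subunit, 23 of 51 large-subunit genes fell and none rose at day 2, and 13 of 26 small-subunit genes fell and 1 rose, with median log2 changes of -0.79 and -0.69. Of 46 genes with a bacterial relative 22 fell and 1 rose, with a median of -0.88, and of 31 specific to mitochondria 14 fell, with a median of -0.62. Without day 0 replicate 2 the large and small subunits had 26 and 15 falls, 0 and 2 rises and medians of -0.57 and -0.64. The genes with and without a bacterial relative then had 25 and 16 falls, 1 rise each and medians of -0.66 and -0.46. Beside these counts, 11.5% of all tested genes were called lower and 19.2% higher with all 9 libraries, with a median of 0.23. When day 0 replicate 2 was left out, 23.6% were lower and 24.7% higher, with a median of 0.02. The same shares stand beside the groups by level below. The classes were not tested against one another, since genes are not replicates. Split by mean level into 3 groups of 26 genes, 11 fell in the low (7.78 to 34.2 TPM), 15 in the middle (34.5 to 64.5 TPM) and 10 in the high group (65.6 to 623 TPM), or 13, 16 and 12 without day 0 replicate 2.

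**Figure D3:**
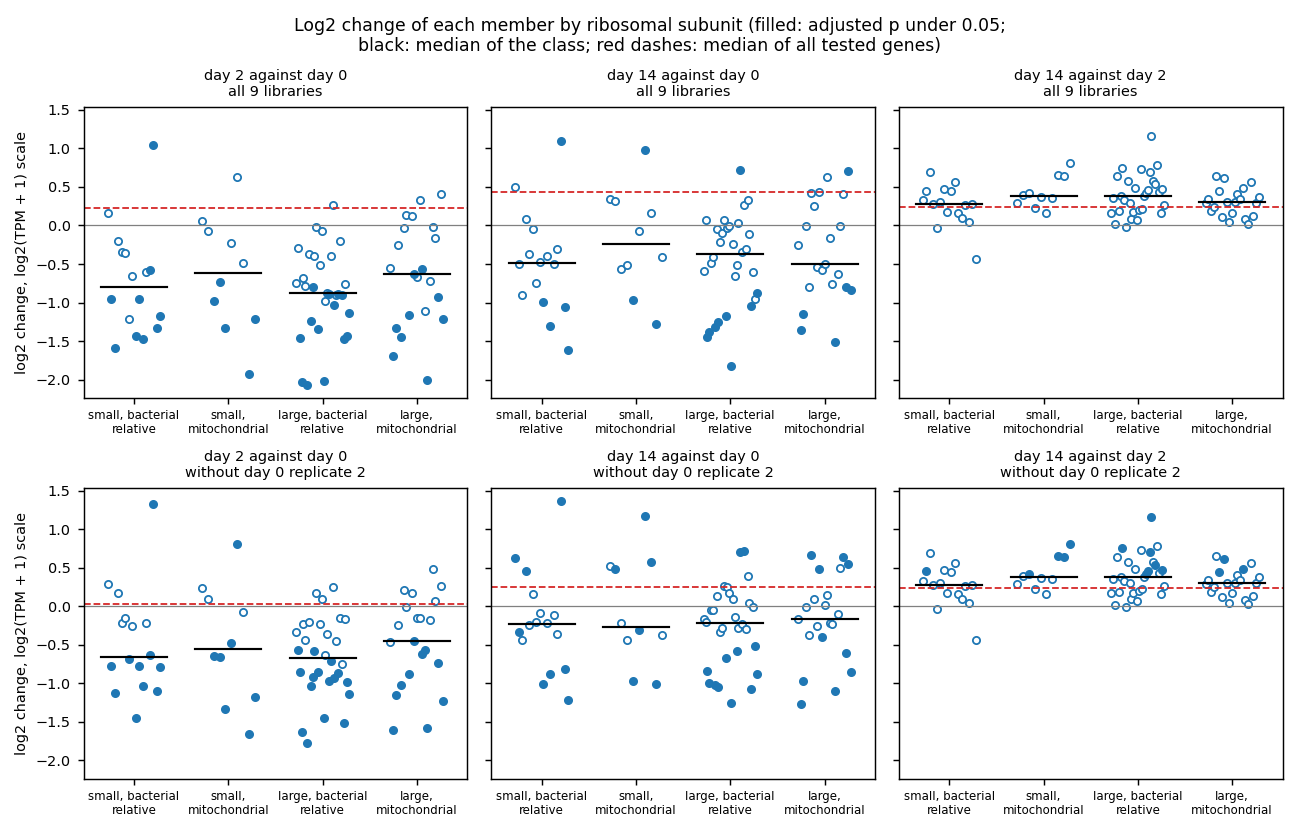
Log2 change (log2(TPM + 1) scale) of 77 members in 4 classes by subunit and by presence of a bacterial relative, for the 3 comparisons with all 9 libraries (top) and without day 0 replicate 2 (bottom); filled points have an adjusted p under 0.05, black bars are class medians and red dashes the median of all tested genes. Class medians lie below the red line against day 0 in all 4 classes, and close to it or slightly above between day 14 and day 2.

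At day 14, 19 members were lower than at day 0 and 5 were higher, beside 6.72% and 27.5% of all tested genes, with a median log2 change of -0.41 for the members and 0.44 for all genes. Without day 0 replicate 2 these were 24 and 13, beside 14.5% and 34.6%, with medians of -0.22 and 0.25. The log2 change was negative in 58 members and positive in 20 (28.4% and 71.6% of all genes). All day 14 libraries lay below all day 0 libraries in 30 members, above in 7 and overlapped in 41 (all tested genes: 9.95% below, 42.5% above). When day 0 replicate 2 was dropped, 52 members had a negative and 26 a positive change (36.3% and 63.6% of all genes), and 35 lay wholly below and 17 wholly above (21.7% and 47.7% of all genes). The 5 rises became 3 without day 0 replicate 1, day 2 replicates 1 or 3, or day 14 replicates 1 or 3 (18.7% to 29.1% of all genes), and 2 without day 14 replicate 2 (18% of all genes). Both comparisons use the same day 0 libraries, so their values are given side by side and their likeness is no separate result.

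MRPL23 was at 65, 61.7 and 65.9 TPM on day 14, a log2 change of -1.83 ± 0.42 from day 0 (limma adjusted p = 0.0118), beside its -2.02 at day 2. MRPL52 was at 21.2, 14.2 and 15.8 TPM (-1.52 ± 0.34, limma adjusted p = 0.0105), and MRPL38 at 43.6, 32.4 and 33.3 TPM (-1.36 ± 0.19, limma adjusted p = 0.0015). Each of the 3 remained below its lowest day 0 value in every library. Without day 0 replicate 2 the day 14 changes of MRPL23, MRPL52 and MRPL38 were -1.25, -1.10 and -1.26.

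MRPS9, a small-subunit protein with a bacterial relative, was at 31.4, 75.5 and 34.5 TPM on day 0, 16.7, 19.4 and 20.0 TPM on day 2, and 11.1, 17.7 and 12.6 TPM on day 14. Its changes from day 0 were -1.18 ± 0.33 at day 2 (limma adjusted p = 0.0274) and -1.61 ± 0.33 at day 14 (limma adjusted p = 0.0074). The day 2 call was lost without day 2 replicate 1, 2 or 3 (limma adjusted p = 0.0900, 0.0698 and 0.0681, in a range from 0.000653 to 0.0900). Day 14 values overlapped those of day 2, and the difference between these days did not pass (limma adjusted p = 0.538).

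MRPL11, from the base of the ribosomal stalk, was at 58.4, 218 and 64.8 TPM on day 0, 31.5, 35.6 and 33.7 on day 2, and 39.2, 30.5 and 32.4 on day 14. Its changes of -1.46 ± 0.44 and -1.44 ± 0.44 (limma adjusted p = 0.0356 and 0.0342) were -0.86 and -0.84 without day 0 replicate 2. The days did not overlap with day 0, but both calls were lost when any 1 library of day 2 or of day 14 was left out. Over all alternatives the limma adjusted p ran from 0.000104 to 0.0989 at day 2 and from 0.000254 to 0.097 at day 14. MRPL12 changed by -1.39 ± 0.35 at day 14 (168, 93.9 and 119 TPM, limma adjusted p = 0.0164), lost without day 14 replicate 2 (0.0617) or 3 (0.0517), with a range of 0.000363 to 0.0617. MRPS24 (174, 126 and 119 TPM) and MRPL20 (163, 114 and 112 TPM) changed by -1.31 and -1.17, with every value below day 0 (limma adjusted p = 0.0212 and 0.0465). The MRPS24 call was lost without day 14 replicate 2 (0.0683) or 3 (0.0711), and the MRPL20 call without any 1 library of day 2 or day 14, with ranges of 0.000235 to 0.0711 and 0.000982 to 0.126. MRPS12 and MRPL41 did not pass at day 14, with log2 changes of -0.91 and -0.80 (limma adjusted p = 0.111 and 0.141).

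MRPS30, formerly described as a cell death protein and now placed in the large subunit, was at 41.8, 40.5 and 43.5 TPM on day 0 and 16.1, 18.5 and 18.1 TPM on day 2 (log2 change -1.21 ± 0.24, limma adjusted p = 0.00655). At day 14 replicate 1 was at 34.5 TPM and replicates 2 and 3 at 19.3 and 18.4 TPM (-0.83 ± 0.24, limma adjusted p = 0.0278). The day 0 libraries were close together and above all others. The day 14 call was lost without day 0 replicate 1 or 3 (limma adjusted p = 0.0545 and 0.0612) or day 14 replicate 2 or 3 (0.0993 and 0.0995), in a range from 0.000361 to 0.0995.

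MRPS6, a small-subunit protein with a bacterial relative, rose at both later days. It stood at 89.5, 148 and 76.5 TPM on day 0, 229, 197 and 202 TPM on day 2, and 183, 254 and 215 TPM on day 14. All 6 later values were above all day 0 values, and MRPS6 moved from rank 21 of the 78 at day 0 to rank 2 at day 2 and day 14. Its log2 changes were 1.05 ± 0.26 (limma adjusted p = 0.016) and 1.09 ± 0.26 (limma adjusted p = 0.0126), or 1.32 and 1.37 without day 0 replicate 2. The day 2 call was lost without day 2 replicate 1 (limma adjusted p = 0.0618), under median-ratio scaling (0.243) and after a length trend was removed (0.0550), and the day 14 call without day 14 replicate 2 (0.0507) and under the same scalings (0.417 and 0.119). Over all alternatives the limma adjusted p of MRPS6 ran from 1.12e-05 to 0.243 and from 2.73e-05 to 0.417. Its reading is uncertain, since SLC5A3, an inositol transporter gene, shares 176 nt of same-strand exon with it in the GENCODE annotation. SLC5A3 was at 10.5, 4.38 and 9.81 TPM on day 0 and 30.4, 26.6 and 24.8 TPM on day 2 (log2 change 1.69, limma adjusted p = 0.00931). On day 14 it was at 9.02, 19.7 and 17.9 TPM, overlapping day 0, with a change of 0.85 that did not pass (limma adjusted p = 0.0993), while MRPS6 was above all its day 0 values.

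At day 14 MRPS31, a small-subunit protein specific to mitochondria, was at 29.8, 22.3 and 22.7 TPM, against 10.5, 15.9 and 10.4 TPM on day 0 (log2 change 0.98 ± 0.21, limma adjusted p = 0.00902), with day 2 at 18.2, 19.6 and 19.6 TPM. All later values exceeded all day 0 values, and the day 2 change of 0.63 did not pass (limma adjusted p = 0.0529), but did without day 0 replicate 2 (0.81, 0.00258). MRPS31 is also uncertain, because the listed copy MRPS31P5 stood at means of 1.40, 4.80 and 4.06 TPM on the 3 days. MRPL30, of the large subunit, went from 14.4, 13.6 and 13.5 TPM to 26.6, 21.1 and 22.9 TPM (0.72 ± 0.16, limma adjusted p = 0.00971), with no overlap between the days.

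Both these calls depended on scaling. Under median-ratio scaling, quantile normalization and removal of a length trend, adjusted p was 0.4, 0.169 and 0.103 for MRPS31 and 0.642, 0.231 and 0.190 for MRPL30, with ranges from 3.24e-05 to 0.4 and from 0.000275 to 0.642 over all alternatives. No rise of a member at day 14 held under all 23 alternatives.

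The 3 MRPS18 proteins are related to the same bacterial protein but occupy different places, MRPS18A in the large subunit, MRPS18B and MRPS18C in the small one, and only MRPS18C, at the bacterial position, is counted here among those with a bacterial relative. MRPS18A was at 35.8, 26.3 and 37.4 TPM on day 0, 37.6, 57.0 and 39.6 TPM on day 2, and 59.9, 52.0 and 51.2 TPM on day 14. Its day 14 rise of 0.71 ± 0.22 passed (limma adjusted p = 0.0357) with separate days. Leaving out day 0 replicate 1 (0.05003), day 2 replicate 1 or 3 (0.0514 and 0.0571) or day 14 replicate 1, 2 or 3 (0.102, 0.0817 and 0.0768) ended the call, and adjusted p ran from 0.00753 to 0.623.

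MRPS18B was at 45.6, 71.9 and 52.7 TPM on day 0, 53.2, 67.9 and 54.3 on day 2, and 92.6, 65.2 and 59.6 on day 14. MRPS18C was at 26.7, 61.7 and 26.5 TPM on day 0, 20.0, 26.6 and 20.3 on day 2, and 27.5, 22.6 and 25.2 on day 14. Neither passed in any comparison and their days overlapped (log2 changes at day 2 of 0.06 and -0.65, at day 14 of 0.35 and -0.48). Changes among the 3 were not tested against each other. MRPS36, the member outside the ribosome, was at 14.1, 15.8 and 13.8 TPM on day 0, 17.4, 14.8 and 20.1 on day 2, and 22.1, 24.9 and 20.0 on day 14. Its day 14 change of 0.58 ± 0.18 passed (limma adjusted p = 0.0361) with no overlap. The call was lost without any 1 library other than day 0 replicate 2 and day 2 replicate 2, with adjusted p of 0.00199 to 0.997 over its alternatives.

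Between day 14 and day 2 no member passed in the fit of all 9 libraries by limma, beside 0.212% of all genes called higher and 0.205% lower. At an unadjusted p under 0.05, 13 members were higher and 0 lower (14.7% and 3.4% of all genes). Their median log2 difference was 0.34 and that of all genes 0.24. Every day 14 library was above every day 2 library in 35 members and below in 0, against 36.8% and 7% of all tested genes. The difference was positive in 75 members and negative in 3 (75.1% and 24.8% of all genes). Without day 0 replicate 2, which enters the fit only through the spread, 15 members were higher and 0 lower, beside 23.5% and 3.86% of all genes, so the called share of members was not above that of all genes.

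The largest differences among those 15, in genes picked after their values had been seen, were in MRPL33, MRPS35 and MRPL15 (0.75). MRPL33, a small large-subunit protein with a bacterial relative, was at 79.8, 186 and 65.5 TPM on day 0, 49.4, 53.2 and 56.2 on day 2, and 147, 113 and 102 on day 14. MRPS35, of the small subunit, was at 66.5, 73.4 and 70.5 TPM, then 28, 27.6 and 33.7, then 63.6, 44.4 and 51.7 TPM. Day 14 values were above day 2 values in each library of both genes. The log2 difference was 1.16 in MRPL33 (limma adjusted p = 0.155 with all libraries and 0.0064 without day 0 replicate 2) and 0.81 in MRPS35 (0.0918 and 0.0124). For MRPS35 the day 2 fall passed (-1.21 ± 0.18, limma adjusted p = 0.00196), while the day 14 values were all below those of day 0, with a mean 75.9% of the day 0 mean and a change of -0.41 that did not pass (0.112). The reading of MRPL33 is uncertain, because BABAM2 shares 152 nt of same-strand exon with it. BABAM2 stood at means of 21.9, 23.8 and 38.3 TPM on days 0, 2 and 14.

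Across the 3 days together, the moderated F test called 34 of the 78 members (43.6%) and 35.4% of all tested genes, and without day 0 replicate 2 it called 53 (67.9%) and 62.1%. The spread within a day was of similar size for the members and for all genes. The median log2 SD over 3 libraries was 0.40 and 0.45 at day 0, 0.18 and 0.16 at day 2, and 0.22 and 0.19 at day 14, and at day 0 without replicate 2 it was 0.08 and 0.09.

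Motif matches in the promoters were spread over members that fell and members that did not. The NRF1 core was found in 6 of 69 promoters (8.70%), the ETS core in 12 (17.4%) and the YY1 core in 13 (18.8%). Among tested genes with a RefSeq promoter the shares were 6.48%, 9.97% and 4.70%, and among all promoters 3.68%, 4.95% and 2.14%. At least 1 of the 3 was in 25 members (36.2%, against 19.4% of tested genes). Of 34 members with a promoter that fell at day 2, 3 held the NRF1, 5 the ETS and 8 the YY1 core, and of the 35 others 3, 7 and 5. These are counts of letters in a window, and no binding was measured. NRF1 itself was at 6.79, 5 and 6.72 TPM on day 0 and 5.71, 6.66 and 5.75 TPM on day 2 (log2 change -0.02, limma adjusted p = 0.946), with overlapping days.

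**Figure D4:**
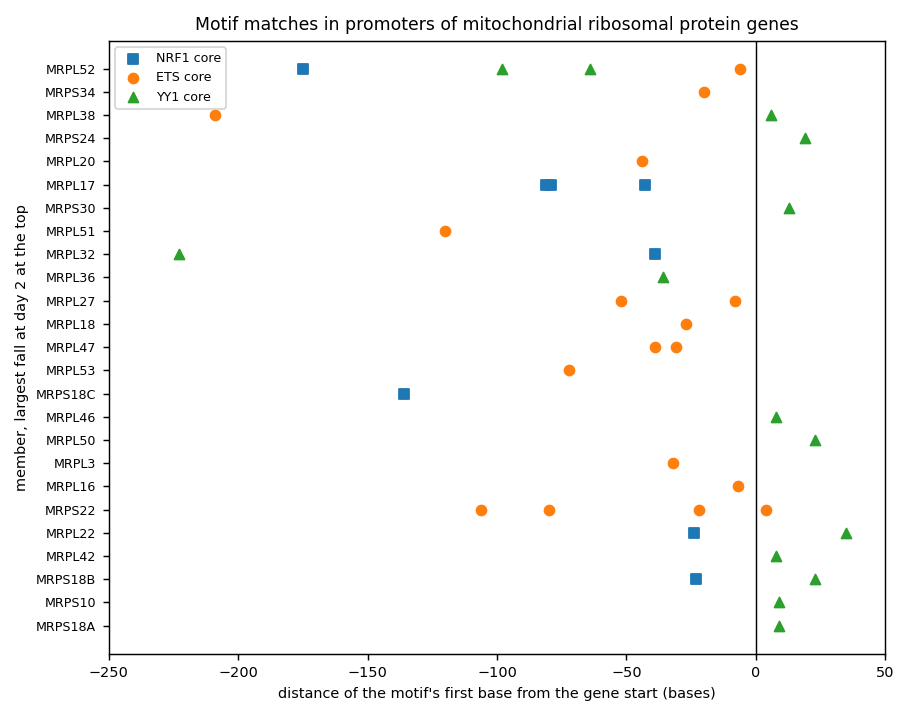
Distance in bases of each NRF1, ETS and YY1 core from the gene start (0, vertical line) for the 25 members with a match, ordered by the log2 change at day 2; a gene with several starts can show 1 site more than once. NRF1 and ETS cores lie mostly before the start, and YY1 cores mostly within 50 bases after it.

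Of the 69 members, 26 (37.7%) had a start within 1000 nt of one facing the other way, compared with 29.5% of tested genes and 20.1% of all. MRPL46 and MRPS11, 1 gene of each subunit, have starts 320 nt apart and are transcribed away from each other. MRPL46 was at 37.8, 52.8 and 34.3 TPM on day 0 and 23.1, 29.5 and 26.4 on day 2 (log2 change -0.62, limma adjusted p = 0.0428), and MRPS11 at 17.8, 26.2 and 17.8 TPM and 9.20, 10.7 and 10.04 TPM (-0.96, limma adjusted p = 0.00754). Both were lower in every day 2 library, but the MRPL46 call was lost under 13 of 23 alternatives. Apart from this pair, 17 divergent partners that are not members were tested, of which 4 were called lower and 1 higher at day 2, beside the 11.5% and 19.2% of all genes, or 7 and 1 without day 0 replicate 2, beside 23.6% and 24.7%.

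The other proteins of the same ribosome and its helpers, from lists drawn up for this pathway, moved as follows at day 2. Beside all these list counts, 11.5% of all tested genes were called lower and 19.2% higher. The shares were 23.6% and 24.7% without day 0 replicate 2, 6.74% and 12.6% without day 2 replicate 1, and 6.85% and 12.3% without day 2 replicate 3. Of 5 further ribosomal proteins whose symbols do not begin with MRP, GADD45GIP1 (-1.27, limma adjusted p = 0.0418) and AURKAIP1 (-1.16, 0.0347) fell, 3 did without day 0 replicate 2, and 0 or 1 did without any 1 library of day 2 or day 14. DAP3, a GTP-binding protein of the small subunit, was at 81.3, 106 and 75.0 TPM on day 0 and 83.7, 87.0 and 80.4 on day 2 (limma adjusted p = 0.849). Of 24 assembly factors 13 fell and 0 rose (0 at an unadjusted p under 0.05, where 15.8% of all tested genes were lower and 27.5% higher), led by the GTPase MTG1 (-1.33) and the rRNA methyltransferase MRM2 (-1.28). Leaving out day 0 replicate 2 gave 15 falls and 1 rise, and the 13 became 4 without day 2 replicate 1 and 5 without replicate 3.

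Of 14 translation factors 2 fell, the elongation factor TUFM (-1.35 ± 0.20, limma adjusted p = 0.00175) and its exchange factor TSFM (-0.85, 0.0155), and 0 rose (1 at an unadjusted p under 0.05). The share of translation factors that fell was near that of all tested genes. Their median log2 change was -0.08, beside 0.23 for all tested genes. Leaving out day 0 replicate 2 gave 6 falls, while leaving out day 2 replicate 1 or 3 gave 1. TUFM was at 169, 163 and 172 TPM on day 0, 61.2, 71.8 and 62.9 on day 2, and 115, 74.1 and 77.5 on day 14, with no overlap of day 0 and either later day. Of 25 genes for mitochondrial DNA expression 10 fell and 0 rose (0 at an unadjusted p under 0.05), among them HSD17B10 (-1.43), a subunit of mitochondrial RNase P, and the RNA-degrading enzyme PNPT1 (-1.22). There were 16 without day 0 replicate 2, 4 without any 1 library of day 2, and 6 without day 14 replicate 2 or 3. Of 27 import and processing genes 15 fell, led by TIMM10 (-1.86), a chaperone of the intermembrane space, and TIMM21 (-1.77), of the inner-membrane translocase. PMPCB, a subunit of the mitochondrial processing peptidase, rose (0.63). Leaving out day 0 replicate 2 gave 17 falls and 1 rise, without day 2 replicate 1 or 3 the falls were 9 and 8, and the rise was lost without any 1 day 2 library.

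At day 14 the falls and rises were 0 and 0 of 5, 4 and 3 of 24, 1 and 1 of 14, 3 and 2 of 25, and 5 and 2 of 27 for the other ribosomal proteins, assembly factors, translation factors, DNA expression genes and import genes. For the first of these, limma gave 1 lower and 0 higher at an unadjusted p under 0.05 (9.58% and 37.1% of all genes). YBEY, an RNA processing enzyme (1.14), and NGRN (0.87) were among the assembly factors that rose, and TFB2M, needed to start mitochondrial transcription (0.97), among the DNA expression genes. Without day 0 replicate 2 the counts were 0 and 0, 7 and 4, 1 and 1, 7 and 4, and 8 and 7. Of all tested genes 6.72% were called lower and 27.5% higher at day 14, or 14.5% and 34.6% without day 0 replicate 2. The assembly factors had 2 falls without day 0 replicate 3 or day 14 replicate 2 or 3. The DNA expression genes had 1 fall without day 14 replicate 2 or 3, and 1 rise without any 1 library other than day 0 replicate 2. For the import genes, leaving out day 14 replicate 2 gave 2 falls, and leaving out day 14 replicate 3 or any 1 day 2 library gave 3. Their rises were 0 without day 14 replicate 1, and 1 without day 0 replicate 1, any 1 day 2 library or day 14 replicate 2 or 3. The single rise among translation factors was lost without any 1 library of day 2 or day 14.

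Of the regulators, MYC, a transcription factor that promotes growth, was at 30.9, 10.6 and 30.3 TPM on day 0, 56.8, 62.5 and 61.2 on day 2, and 128, 80.9 and 99.7 on day 14 (log2 changes 1.43 and 2.18, limma adjusted p = 0.0216 and 0.00377). Without day 0 replicate 2 its changes were smaller, at 0.95 and 1.69. GABPA rose by 0.76 and 1.02 (limma adjusted p = 0.0441 and 0.0131). In every day 2 and day 14 library MYC was above its day 0 values. Both day 2 calls were lost without any 1 day 2 library, and 1 of them without day 0 replicate 1 or any 1 day 14 library. With all 9 libraries no regulator was lower (0 also at an unadjusted p under 0.05 by limma), and neither ESRRA (-0.77, limma adjusted p = 0.144) nor PPRC1 (0.22, 0.767) passed at day 2. Both fell at day 2 when day 0 replicate 2 was left out, with log2 changes of -1.17 for ESRRA (limma adjusted p = 0.00889) and -0.50 for PPRC1 (0.0117), and so did ESRRA at day 14 (-0.83, 0.0342). The change of PPRC1 at day 2 thus had the opposite sign without that library, in which PPRC1 was at 8.12 TPM against 40.4 and 40.1 TPM in the other day 0 libraries. ESRRA was at 29.2 TPM in it against 65.5 and 71.3 TPM, and PPARGC1A and PPARGC1B were under the filter on low values.

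For comparison, of 78 tested genes with symbols of nuclear respiratory chain subunits, 18 fell at day 2 and ATP5S rose. These genes were taken by symbol alone, so a gene such as ATP5S need not encode a structural subunit. The falls were led by NDUFS5 (-2.16) and NDUFB10 (-2.02), both of complex I. Leaving out day 0 replicate 2 gave 41 falls and 1 rise. Falls numbered 28 without day 0 replicate 1, and 7 and 8 without day 2 replicates 1 and 3. The median log2 change of these 78 genes was -0.76, or -0.41 without day 0 replicate 2. Of all tested genes 11.5% were called lower and 19.2% higher at day 2, or 23.6% and 24.7% without day 0 replicate 2. Those called lower were 9.66% without day 0 replicate 1, and 6.74% and 6.85% without day 2 replicates 1 and 3. Of 84 tested cytosolic ribosomal proteins 2 fell, RPL39L (-1.50) and RPS26 (-1.07), and RPL15 rose (0.48), with a median of -0.25. Leaving out day 2 replicate 1 or 3 left 0 falls and 0 rises. Without day 0 replicate 2 the cytosolic counts were 3 falls and 20 rises, with a median of 0.13. At day 14 the respiratory chain had 9 falls and 1 rise (20 and 4 without that library, 14 falls without day 0 replicate 1), and the cytosolic ribosome 0 falls and 2 rises (1 and 45), or 0 rises without day 14 replicate 1 or 3. At an unadjusted p under 0.05, limma gave 3 cytosolic genes lower, beside 9.58% of all genes. At the adjusted threshold 6.72% of all tested genes were lower and 27.5% higher at day 14, or 14.5% and 34.6% without day 0 replicate 2. The lists were not tested against the members.

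**Figure D5:**
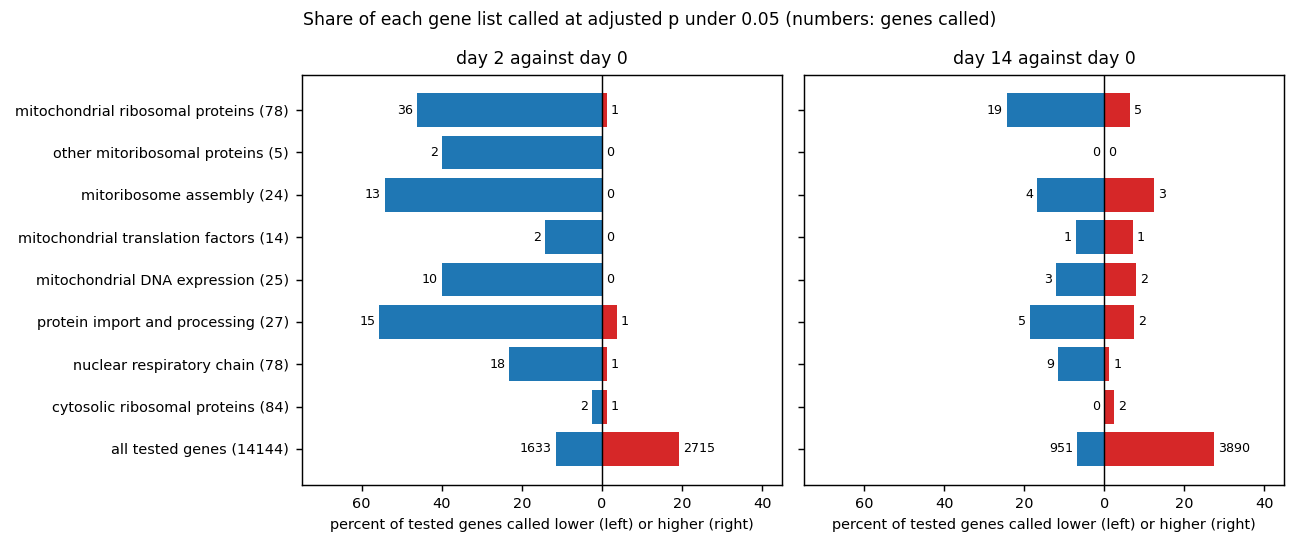
Percent of the tested genes of each list called lower (blue, left) or higher (red, right) at an adjusted p under 0.05, at day 2 and day 14 against day 0, with all 9 libraries; list sizes are in parentheses and numbers beside the bars are genes. The mitochondrial lists lie mostly to the left at day 2, with 36 of 78 members, while all tested genes lie more to the right.

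According to the GENCODE annotation 31 members share exon sequence with another gene, 8 on the same strand and 24 on the opposite one. The strand setting was not given in the sources used here, so reads of such pairs cannot be told apart with certainty. This touches MRPS12, which shares 349 nt with SARS2 on the opposite strand. SARS2 was at means of 64.0, 90.2 and 59.5 TPM and did not pass at day 2 (log2 change 0.64, limma adjusted p = 0.242). It touches MRPS18A as well, which shares 604 nt with RSPH9, at means of 0.109, 2.40 and 2.14 TPM.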

How the data were processed

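For all 9 libraries the authors deposited TPM values by gene symbol, and Salmon and hg19 are named in the submitters' processing notes. No source used here gave a version, annotation, strand setting or filter. TPM corrects for transcript length and keeps no depth. Columns were mapped by the day and replicate number in their names. Values were analysed as log2(TPM + 1), a scale that understates changes of low genes. All comparisons came from limma 3.58.1 under R 4.3.3 (1 fit of all 9 libraries, intensity trend, two-sided, Benjamini-Hochberg adjustment over 14144 genes), and the fit was tested on simulated data. The 23 alternatives covered pseudocount, filter, scaling, moderation, weights, block and leaving out each library. Overlaps and lengths came from GENCODE 29 (GRCh38), and 25430 symbols matched. The members and lists were chosen with earlier results of these data known. Named members were, per comparison, up to 6 called falls and 6 called rises without overlap between groups, the 4 highest, the 2 lowest and 9 fixed by name. Of each list, up to 2 falls and 2 rises were named. The 12 plotted genes were picked after their values had been seen.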

Additional observations from a re-analysis of the deposited data

How the results depend on the processing

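Of the 36 falls at day 2, 19 kept their call under all 23 alternatives, and of the 19 falls at day 14, 13 did. The single rise at day 2 and the 5 at day 14 were each lost under at least 1, and no call changed direction. Leaving out 1 library in turn gave 20 to 41 falls and 0 to 2 rises at day 2, 13 to 24 falls and 2 to 13 rises at day 14, and 0 to 15 members higher at day 14 than at day 2. Rises at day 2 numbered 2 with a mean of at least 5 TPM, 0 with median-ratio scaling or the length trend removed, 5 with array weights, and 2 with TPM without microRNA and other short RNA symbols, an alternative chosen after seeing the data. Day 14 falls were 34 with median-ratio scaling, 32 with quantile normalization, 33 with the length trend removed and 36 with array weights. Day 14 rises were 0, 2, 0 and 14 under the same settings, 3 without short RNA symbols, and 2 in a fit of only the 2 days. Day 14 against day 2 gave 32 members higher with array weights and 9 with only the 2 days. In these 2 settings the members' median log2 difference lay 0.04 and 0.10 above that of all genes. The share of all genes called in each of these settings is not given here, so the member counts are not read as results about the members. The counts over all tested genes moved between settings too. Over the 23 alternatives, 945 to 4662 genes were called lower at day 2 and 577 to 2785 at day 14. Those called higher numbered 1652 to 4313 and 2166 to 5670. Between day 14 and day 2, 0 to 645 were called lower and 0 to 4407 higher. The replicate block gave 27 falls and 1 rise at day 2, 17 and 3 at day 14 and 0 between day 14 and day 2. Replicate numbers were not taken to pair samples, since same-numbered libraries had correlations of deviations of -0.08 to 0.02.

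Median-ratio scaling moved the median log2 change of all genes from 0.23 to -0.05 at day 2 and from 0.44 to -0.05 at day 14, and the members' median relative to it from -0.99 to -1.05 and from -0.85 to -0.95. The cause was not tested. The members' median relative to that of all genes was -0.67 and -0.62 with quantile normalization, and -0.65 and -0.52 with array weights. Over all settings it ran from -1.26 to -0.60 at day 2 and from -1.04 to -0.46 at day 14. Sign changes occurred only in values that did not pass in the fit of all 9 libraries, and those of some members follow. Further members changed sign without day 0 replicate 2, such as MRPL49 at day 2, from 0.33 to -0.16. MRPS18B at day 2 was -0.29 with median-ratio scaling, -0.0027 without cytosolic ribosomal protein genes, -0.12 with the length trend removed, and -0.083 without day 0 replicate 1 to 0.24 without day 0 replicate 2 over single libraries left out (-0.052 without day 2 replicate 2), and at day 14 it was -0.25 with median-ratio scaling and -0.057 with the length trend removed. MRPS36 at day 2 was -0.10 with median-ratio scaling. Between day 14 and day 2, MRPS18C was -0.070, -0.090 and -0.042 and MRPS6 -0.21, -0.16 and -0.20 with median-ratio scaling, quantile normalization and the length trend removed, and MRPS6 was -0.095 without short RNA symbols and -0.075 without day 14 replicate 2 to 0.16 without day 14 replicate 1 over single libraries left out. TPM keeps no depth, so no counting error can be given, and 3 libraries per day limit the precision.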
